A study of Mus musculus with 47 samples.

Results

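The genes described here encode the translation initiation and elongation factors of the mouse and the kinases, binding proteins and other partners that carry their names. They were taken as all symbols in the read count table that begin with Eif or Eef followed by a digit, which gave 64 of 22800 symbols. Their messenger RNA was read in single neuropeptide Y (NPY)-positive GABAergic interneurons of the auditory cortex (AC) and of hippocampal area CA3, with 3 cells of CA1 set beside them. All cells came from NPY-hrGFP mice, called NPY-EGFP in the submitters' design text, in which a green fluorescent protein marks cells that make NPY. The mice, male and female, were 3 to 8 weeks old by the labels. AC cells were reached in coronal slices and hippocampal cells in horizontal ones, so region and slice plane cannot be told apart. The cytosol of each cell was drawn into a patch pipette, so each library stands for 1 patched cell. The study names 8 mice in all and no mouse for any cell. Each region was therefore taken as 1 sample, no test between regions was made, and every SD below describes the spread between cells only.

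Of 20 AC and 21 CA3 columns in the table, the 10 AC and 13 CA3 columns that had earlier been matched to cells drawn in the study's heat maps were used here. That match was not repeated, and the set leaves out CA3 cells that the study kept. Total reads on genes ran from 1715012 to 6265431 in AC, from 2229519 to 7949918 in CA3 and from 601781 to 3202430 in CA1. Between 3163 and 6288 genes had a read per AC cell, against 3679 to 8149 per CA3 cell. The GABAergic markers Gad1 and Gad2 were read in every one of these cells. Markers of other cells were read as well. The 6 astrocyte markers summed to 0.25 to 3015 CPM (reads per 1000000 reads on genes) in AC and at most 660 in CA3, with Aqp4 at 0 in both. The 6 microglia markers reached 3707 in AC and 1864 in CA3 on that scale, with Tmem119 at 0 in both. The 6 oligodendrocyte markers reached 367 in AC and 1043 in CA3, with Mog at 0 in both, and the 5 pyramidal cell markers stayed at or below 157 in AC and 383 in CA3. The CA1 cell N1 had 1683 CPM of astrocyte and 510 CPM of pyramidal cell markers. The part of these cells' RNA in the values below was not tested.

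Translation starts when eIF2 carries the initiator transfer RNA to the small ribosomal subunit, eIF3 and the eIF1 proteins hold that subunit ready, and the cap-binding complex of eIF4E, the scaffold eIF4G and the helicase eIF4A brings the messenger RNA. After the start codon is found, eIF5 and eIF5B allow the large subunit to join, eEF1A then delivers each aminoacyl transfer RNA, and eEF2 moves the ribosome along the message. In neurons this machinery is known for its control by eIF2 alpha kinases, by 4E-binding proteins under mTOR and by eEF2 kinase, which couple protein synthesis to activity and stress.

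Several members are close copies of each other, and which copy was read is the subject of some of the values below. The first 60 coding bases of 3 such pairs are shown for that reason, 5′ to 3′ from the start codon, from the GENCODE vM21 transcripts (GRCm38), with the bases that differ within a pair in capitals. Eef1a1 and Eef1a2 differ at 11 of these 60 bases, Eif2s3x and Eif2s3y at 13, and Eif1 and Eif1b at 5.
Eef1a1: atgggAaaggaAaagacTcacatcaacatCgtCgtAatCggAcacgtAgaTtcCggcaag
Eef1a2: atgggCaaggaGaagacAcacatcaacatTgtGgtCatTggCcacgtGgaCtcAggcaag
Eif2s3x: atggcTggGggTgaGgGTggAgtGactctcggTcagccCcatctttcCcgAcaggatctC
Eif2s3y: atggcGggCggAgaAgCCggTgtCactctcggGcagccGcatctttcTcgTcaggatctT
Eif1: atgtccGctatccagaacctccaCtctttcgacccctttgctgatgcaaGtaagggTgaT
Eif1b: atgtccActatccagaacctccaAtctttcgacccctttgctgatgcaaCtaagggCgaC

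Over whole coding regions, Eef1a1 (chr9:78478449-78489151, minus strand) and Eef1a2 (chr2:181147653-181157014, minus strand) were identical at 80.0% of aligned bases and at 92.2% of the encoded residues. Eif2s3x (chrX:94188707-94212862, minus strand) and Eif2s3y (chrY:1010543-1028847, plus strand) shared 86.3% of bases and 97.9% of residues. Eif1 (chr11:100319885-100322096, plus strand) and Eif1b (chr9:120492232-120495330, plus strand) shared 81.3% of bases and 92.0% of residues. Windows of 50 bases were then compared with all other transcripts of the annotation. No window of 29 of the 64 members recurred elsewhere, and 49 members had under 10% of their windows in another transcript. In 5 members at least 50% recurred: Eif3j2 (91.8%, mostly in Eif3j1), Eif4ebp3 (65.5%), Eif4a1 (65.3%, mostly in the pseudogene Eif4a-ps4), Eef1g (64.3%) and Eef1a1 (59.2%, in 20 other genes). A further 10 members had between 10% and 50%, among them Eif3j1 (39.8%), Eif3m (37.3%), Eif2s3x (36.2%) and Eif1 (31.6%). Reads of all these members could have been split or dropped in counting, and their values are uncertain to that extent. No window of Eif2s3y or Eif1b recurred, so this limit touches 1 copy only in the Eif2s3x and Eif2s3y pair and in the Eif1 and Eif1b pair.

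As a group the members took a small share of each cell's reads. In AC the share was 0.397% at the lowest, 0.880% at the median and 1.19% at the highest, with a mean of 0.832% ± 0.246 (SD over 10 cells). In CA3 it was 0.783% at the lowest, 1.08% at the median and 2.02% at the highest, with a mean of 1.09% ± 0.323 (SD over 13 cells). The 3 CA1 cells held 0.797%, 0.870% and 0.944%. The ranges of AC and CA3 overlapped, and the difference of the means, -0.259 percentage points for AC minus CA3, was smaller than the SD over CA3 cells and larger than that over AC cells. The number of members with at least 1 read was 16 at the lowest, 38.5 at the median and 49 at the highest in AC, and 32, 43 and 58 in CA3. More genes of any kind were read in CA3 cells as well. Where a minimum of 10 reading cells among the 23 of AC and CA3 was set, an AC cell had reads of 60.3% of the genes and a CA3 cell of 72.7% on average, and of the members that met it 68.9% and 80.5%. The AC cell N41 stood lowest in members read, at 16, and in share of reads; it had 3293 genes with a read. Without N41 and N42, the 2 AC cells with the fewest genes read, the gap in members read was -3.78 per cell, against -6.95 with them, a setting chosen after the data were seen.

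**Figure D1:**
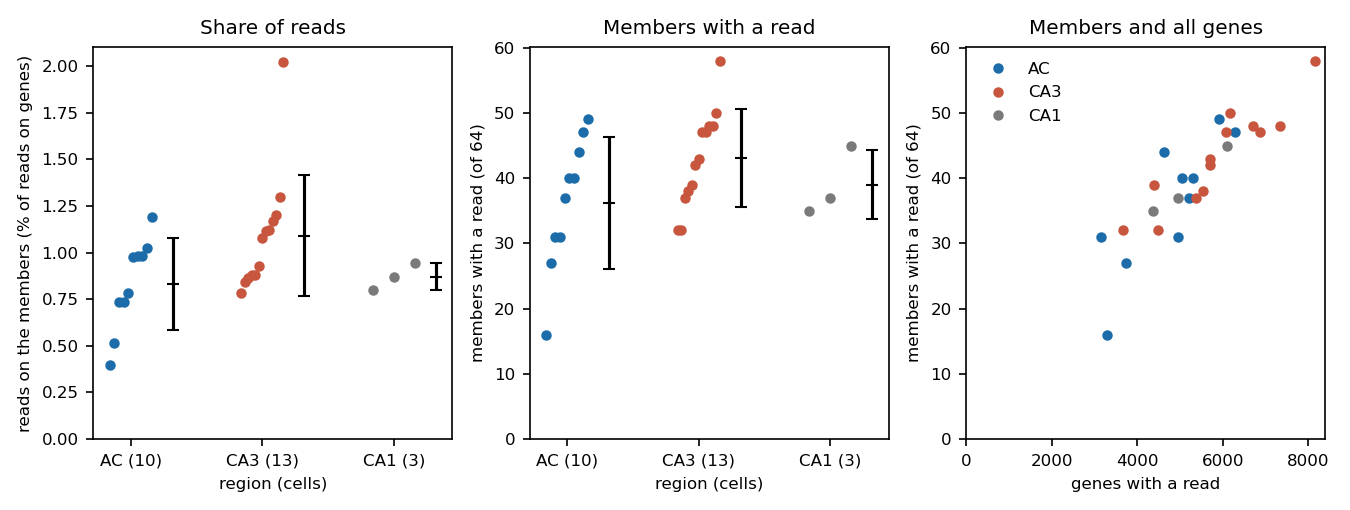
Share of reads on the 64 members (left, percent of reads on genes), number of members with a read (centre) and members with a read against all genes with a read (right), 1 point per cell, with the mean and SD over cells as bars. AC and CA3 overlap in all panels, the CA3 cell N27 is highest in share at 2.02%, and the AC cell N41 is lowest in members read at 16.

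Per kilobase of the longest transcript, and as a mean over the 23 AC and CA3 cells, the members spanned a wide range of level. Eef1a1 was the highest at 573 CPM per kilobase, followed by Eif1 at 565, its copy Eif1b at 472, Eif5a, which helps the ribosome through difficult peptide bonds, at 335, and the helicase Eif4a2 at 242. The next were 4 subunits of eIF3, Eif3g at 159, Eif3k at 139, Eif3i at 125 and Eif3h at 114, with the helicase Eif4a1 among them at 115. The gap between Eef1a1 and Eif1 was small beside the differences between regions, since in AC alone Eif1 stood at 585 and Eef1a1 at 429 CPM per kilobase. In single AC cells the member with the most reads was Eif1 in 5, Eef1a1 in 3, and Eif1ax and Eif4a2 in 1 each. In CA3 it was Eef1a1 in 6 cells, Eif1b and Eif4g2 in 2 each, and Eif1, Eif4a2 and Eif5a in 1 each.

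Few members were read in every cell. Eef1a1, Eif1, Eif2s2, Eif4a1, Eif4a2, Eif5a and Eif5b, 7 of 64, had a read in all 23 AC and CA3 cells, as had 5.5% of all genes that met the minimum of 10 cells. Among genes of like level and transcript length that share was 9.85%, against 14.9% of the 47 members. A further 9 members were read in all 13 CA3 cells but not in all AC cells: Eef1a2, Eef1b2, Eef2, Eif3c, Eif3g, Eif4e, Eif4g2, Eif4g3 and Eif5. That was 19.1% of the members that met the minimum, 9.52% of all genes, and 15.9% of genes of like level and length. Eif1b alone was read in all 10 AC cells but not in all CA3 cells, as were 2.13% of all genes. With the 3 CA1 cells added, 6 members were read in all 26 cells (4.88% of all genes). At the other end, Eif2ak2, the kinase PKR that senses double-stranded RNA, and Eif4e1b, a form of eIF4E known from oocytes, had no read in the 23 cells, which allows up to 0.0881 CPM over the summed reads of AC and 0.0614 CPM over those of CA3. In all, 43 members were read in a larger percentage of CA3 cells, 12 in a larger percentage of AC cells, and 9 in the same percentage of both. Among the 47 members that met the minimum, 66.0% were read in a larger percentage of CA3 cells, where 70.8% of all genes were, and 19.1% in a larger percentage of AC cells, where 23.7% of all genes were.

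**Figure D2:**
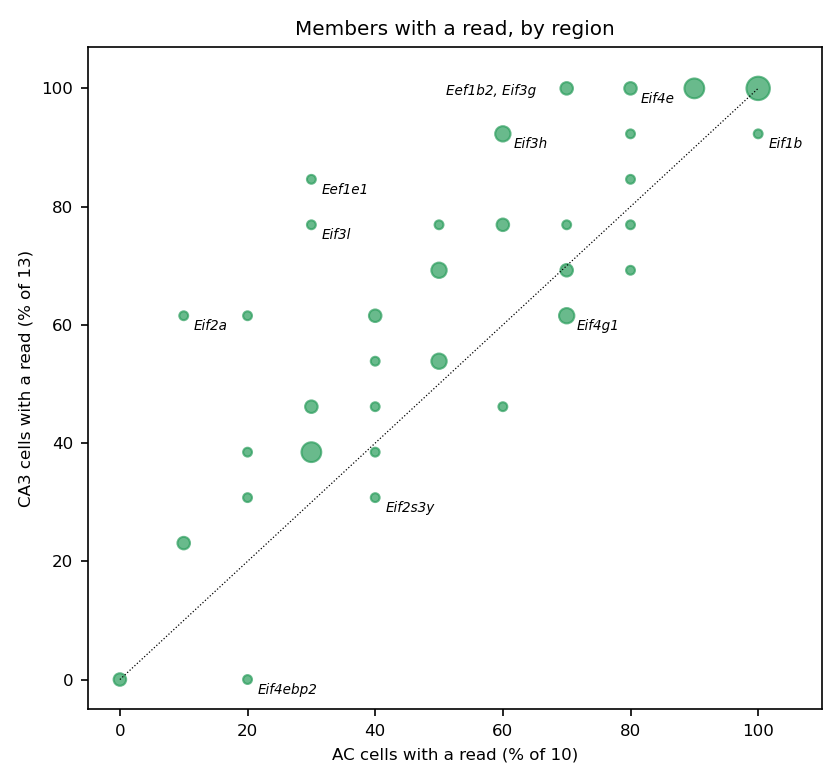
Percentage of the 10 AC cells (horizontal) and of the 13 CA3 cells (vertical) with a read of each member, with point area proportional to the number of members at that position. More points lie above the dotted line of equal percentages (43 members) than below it (12 members), and Eef1e1, Eif3l and Eif2a lie far above it.

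For the comparison of levels, counts were divided by size factors and given as log2(normalised count + 1), called the level below. The question was whether the translation factors were set apart between the NPY-positive cells of AC and CA3. The median gene was lower in AC by 0.91 on this scale, the difference of AC minus CA3 being -0.91 over the 5964 genes that met the minimum of 10 reading cells, and 30.7% of these genes were higher in AC. The median of the 47 members that met the same minimum was -1.18, that is -0.27 relative to the median gene. The other 17 members did not reach the minimum and entered no median: Eif2a, Eif2ak2, Eif2ak3, Eif2ak4, Eif2b1, Eif2b2, Eif2b3, Eif2d, Eif2s3y, Eif4e1b, Eif4e3, Eif4ebp1, Eif4ebp2, Eif4ebp3, Eif4enif1, Eif5a2 and Eef2k. Relative to the median gene, 10 of the 47 members (21.3%) were higher in AC by at least 1, as were 29.3% of all genes, and 14 (29.8%) were higher in CA3 by at least 1, as were 29.6% of all genes. The remaining 23 lay within 1 of the median gene. Without subtracting the median, 4 members were higher in AC by at least 1 (15.4% of all genes) and 25 in CA3 (48.1% of all genes). With cells without a read kept at 0, the members' share was below that of all genes toward AC and near it toward CA3. Over cells with a read only, a setting chosen after the data were seen, the median difference was 0.05 for all genes and -0.46 for the members. Relative to the median gene, 17 members (36.2%) then lay past 1 toward CA3, against 22.3% of all genes. Toward AC 7 members (14.9%) did, against 24.97% of all genes. The counts depended on the cells and the filter: 3 members lay past 1 toward AC and 22 toward CA3 (46.8%, against 28.7% of all genes) over the 18 AC and 20 CA3 cells left by a filter after the study's methods, and with no minimum of cells 25 of 62 lay past 1 toward CA3 (40.3%, against 26.05% of all genes).

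Genes of short transcripts had lower values in AC than genes of long ones: the median difference was -1.48 among the shortest of 5 equal classes of genes and -0.32 among the longest. Each member was therefore set against the median of all genes in its own class of mean level and of transcript length, with 156 to 320 genes to a class. The median of the members after this step was -0.27, with 12 members higher by at least 1 in AC (27.9% of all genes) and 16 in CA3 (29.1% of all genes). Leaving out the AC cell N8 gave 0.15 and leaving out N43 gave -0.41, and without N41 and N42 it was 0.14, so its sign rested on single cells. The SD of a member's level over cells had a median of 4.10 in AC and 3.51 in CA3, and over all genes of 4.11 and 3.67. Without subtracting the median gene, only 4 of the 47 members (8.51%) differed between regions by more than the SD over cells of both regions. These were Eef1b2, Eef1e1, Eif3h and Eif3l, all higher in CA3, beside 5.90% of all genes in either direction. The median difference of all genes, -0.91, was left in here, which tilts the count toward CA3. Directions were not counted over all genes. The minimum of 10 reading cells also favours CA3. Its cells could meet it alone, as they did for these 4, whereas AC would need a read in all of its cells. The ranges of the 2 regions overlapped for all 47, and how many of all genes overlapped was not counted. Single cells were left out in turn for all 24 members past 1 in either direction. This brought 7 of them to within 1: Eif1 to 0.84 (without N42), Eif3i to 0.56 (without N46), Eif4e2 to 0.55 (without N7), Eif4e to -0.50 (without N3X), Eef2 to -0.78 (without N44), Eif2s1 to -0.49 (without N5) and Eif1ad to -0.46 (without the CA3 cell N27).

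**Figure D3:**
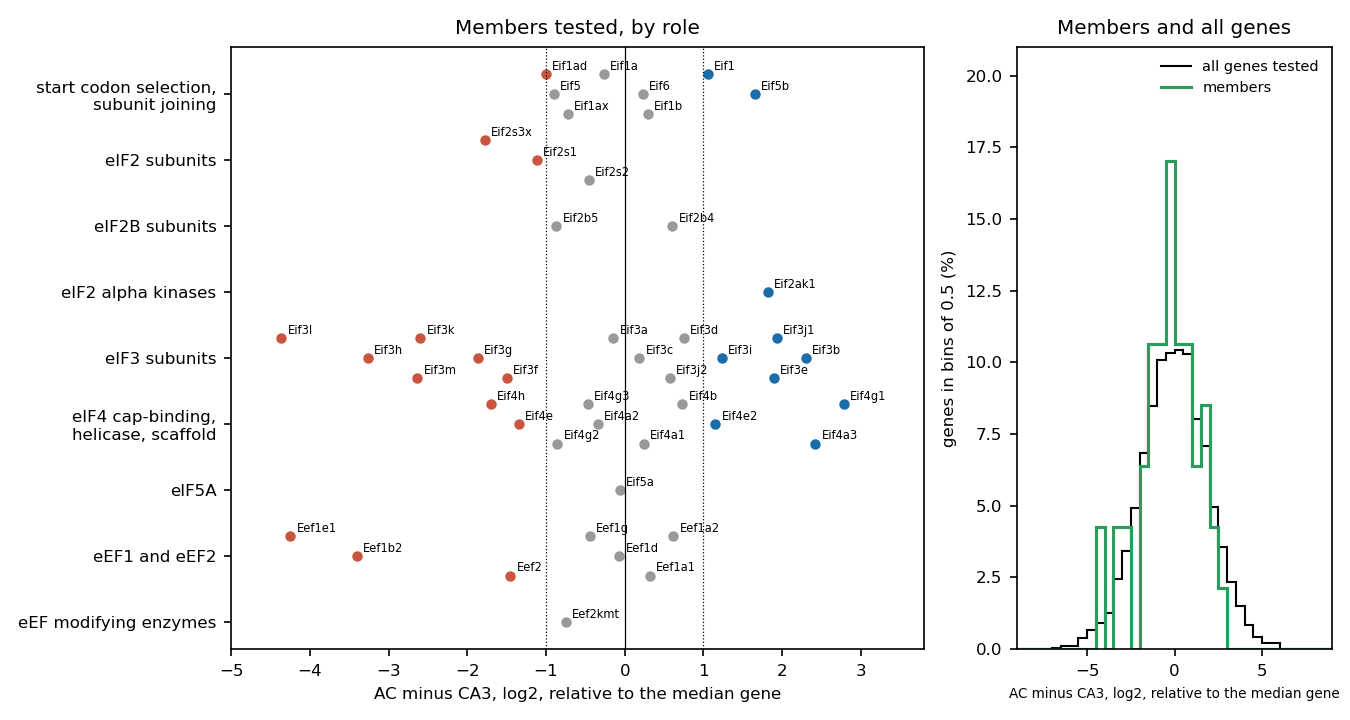
Left, difference in mean level, AC minus CA3, on the log2 scale relative to the median gene, for the 47 members that met the minimum of 10 reading cells, by role; right, the same for all 5964 genes and the members, as percentages in bins of 0.5. Points at or past 1 are blue for AC (10 members) and red for CA3 (14 members). On the right, all genes include the members.

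The factors that select the start codon and join the subunits were among the most widely read. Eif1, which guards the choice of start codon, had levels of 9.86 at the lowest, 11.61 at the median and 12.08 at the highest AC cell, and of 9.94, 11.22 and 12.28 in CA3. The 2 regions covered nearly the same range, and the difference of means was 0.14, or 1.05 relative to the median gene. With the filter after the study's methods the relative value of Eif1 turned to -1.41. Eif5b, the GTPase of subunit joining, ran from 5.0 over a median of 8.79 to 10.67 in AC and from 5.99 over 8.38 to 9.61 in CA3, a difference of 0.74. Its summed reads were 193 CPM in AC (exact Poisson 95% interval 188 to 198, counting error only) and 101 CPM in CA3 (98.6 to 104). Of the 8 members of this role with enough cells, 2 were higher in AC by at least 1 relative to the median gene, 1 was higher in CA3, Eif1ad, and 5 lay between, beside 29.3% and 29.6% of all genes past 1 toward AC and CA3. Eif1ax, the X-linked form of eIF1A, was read in 6 AC and 12 CA3 cells, and where it was read its level was higher in AC by 2.09, so the mean over all cells (-0.73 relative) and the mean over reading cells had opposite signs. Eif1a stood at -0.27. Both rested on single AC cells: Eif1ax came to -1.43 without N42 and to 0.13 without N5, and Eif1a to -1.09 without N42 and to 0.40 without N8.

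The share of Eif1b among Eif1 and Eif1b reads per kilobase was 11.3% at the lowest, 25.8% at the median and 50.03% at the highest in AC. In CA3 it ran from 0% over 46.9% to 83.4%. The means were 27.3% ± 13.5 (SD, 10 cells) and 45.2% ± 21.7 (SD, 13 cells), and the ranges overlapped. In summed reads Eif1b stood at 226 CPM in AC (221 to 231) and 619 CPM in CA3 (612 to 626), of which the CA3 cell N27 held 26.8%. In mean level Eif1b stood at 0.30 relative to the median gene, toward AC, and this value had the other sign in 9 of 15 alternative settings.

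Subunits of eIF2 and its regulators differed widely in how many cells they were read in. Eif2s2, the beta subunit, was read in all 23 cells, with levels from 1.14 over 8.53 to 10.01 in AC and from 3.14 over 9.35 to 11.11 in CA3. Eif2s1, the alpha subunit that the stress kinases phosphorylate, was read in 5 AC and 9 CA3 cells, with a relative difference of -1.11. Eif2a, which can bring initiator transfer RNA by another route and is not the alpha subunit, was read in 1 of 10 AC cells, with 22 reads, and in 8 of 13 CA3 cells, with 5320 reads. With 9 cells in all it did not reach the minimum. Of the 5 subunits of eIF2B, the exchange factor of eIF2, Eif2b4 and Eif2b5 met the minimum, at relative differences of 0.60 and -0.87, and all 5 were read in a larger percentage of CA3 cells, as were 70.8% of all genes.

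Eif2s3x and Eif2s3y encode the gamma subunit of eIF2 from the X and the Y chromosome. Reads of Eif2s3y were found in 4 AC cells and 4 CA3 cells, and reads of Eif2s3x in 2 and 8. Together, 4 of the 23 cells had reads of both copies, 6 of Eif2s3x alone, 4 of Eif2s3y alone and 9 of neither. Other Y-linked genes, Ddx3y, Uty or Kdm5d, were read in 7 of the 8 cells with Eif2s3y reads and in 6 of the other cells, in 3 of which the count was a single read. In all, 4 AC and 7 CA3 cells had more than 1 read of these Y-linked genes or Eif2s3y, with 324 to 2966 reads each, and these genes are carried by males only. The difference of Eif2s3x, -1.78 relative to the median gene, thus rested on 2 AC cells, and how many of the other cells came from females was not tested.

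Of the kinases that phosphorylate eIF2 alpha, Eif2ak1, the heme-regulated kinase, was the one read most widely, in 8 AC and 10 CA3 cells. Its levels ran from 0 over 8.24 to 11.06 in AC and from 0 over 7.39 to 10.32 in CA3, a relative difference of 1.82. Eif2ak3 (PERK, the kinase of endoplasmic reticulum stress) was read in 4 AC and 5 CA3 cells and Eif2ak4 (GCN2, the amino acid sensor) in 3 and 5. In summed reads Eif2ak3 stood at 76.1 CPM in AC, 63.3% of it from the cell N3X, and at 40.5 CPM in CA3. Eif2ak4 stood at 43.3 CPM in AC, 73.9% of it from N7, and at 21.4 CPM in CA3.

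Of the subunits of eIF3, the largest initiation factor, all 14 met the minimum of 10 cells, and 4 of them, Eif3b, Eif3e, Eif3i and Eif3j1, were higher in AC by at least 1 relative to the median gene, while Eif3l, Eif3h, Eif3m, Eif3k, Eif3g and Eif3f were higher in CA3, beside 29.3% and 29.6% of all genes in these directions. Their median was 0.02 relative to the median gene. An AC cell had reads of 8.5 ± 3.24 subunits (SD, 10 cells) and a CA3 cell of 10.4 ± 2.57 (SD, 13 cells). A single cell, in CA3, had reads of all 14.

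Eif3l had the most negative difference of all members that were compared. Its CA3 cells alone met the minimum of 10, and members below the minimum, such as Eif2a, were not ranked. Eif3l had no read in 7 of 10 AC cells, so that its lowest and median levels there were 0 and its highest was 9.72. In CA3 it ran from 0 over 9.09 to 11.31 with 10 of 13 cells read. The means were 1.95 ± 3.48 (SD, 10 cells) and 7.22 ± 4.19 (SD, 13 cells), a relative difference of -4.36 and of -4.08 against genes of like level and length. The AC cell N43 held 90.6% of its AC reads, and the 3 CA1 cells were at 8.73, 4.34 and 8.78. Eif3h was read in 6 AC cells, from 0 over 4.51 to 9.75, and in 12 CA3 cells, from 0 over 8.43 to 11.45, with summed reads of 53.3 CPM (50.9 to 55.8) and 217 CPM (213 to 221). Eif3g differed in another way. Its mean level was lower in AC by a relative 1.87, as 3 of 10 AC cells had no read, but in the cells with a read the 2 regions differed by -0.01, and without N41 and N42 the relative value was -0.45. Eif3m was read in 5 AC and 10 CA3 cells and in no CA1 cell, with levels from 0 over 1.65 to 8.65 in AC and from 0 over 8.91 to 11.14 in CA3. For Eif3k the levels ran from 0 over 5.29 to 10.27 in AC and from 0 over 9.39 to 10.14 in CA3, a relative difference of -2.60. Eif3f, with 6 AC and 10 CA3 cells read, stood at -1.49. These 3 subunits had cells without a read in both regions, and their highest cells lay close together for Eif3k and Eif3f.

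Toward AC, Eif3b, which anchors the core of eIF3, ran from 0 over 9.16 to 11.13 in AC, with 7 of 10 cells read, and from 0 over 7.74 to 9.77 in CA3, with 8 of 13 cells read. Its relative difference was 2.30, and its summed reads were 191 CPM in AC (187 to 196) and 75.6 CPM in CA3 (73.2 to 78.1). Eif3e had a relative difference of 1.90 and Eif3i of 1.23, and the AC cell N46 held 43.98% of the Eif3i reads of AC. At the lowest of the alternative settings Eif3e stood at 0.059 and Eif3i at 0.025. Eif3j1 stood at 1.93, with 58.3% of its AC reads in N42, and in the cells with a read it differed by -0.08. Its near copy Eif3j2, with which 39.4% of its windows were shared, stood at 0.57. Eif3j2 came to -0.06 without the AC cell N42 and to -0.13 over cells with a read only.

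**Figure D4:**
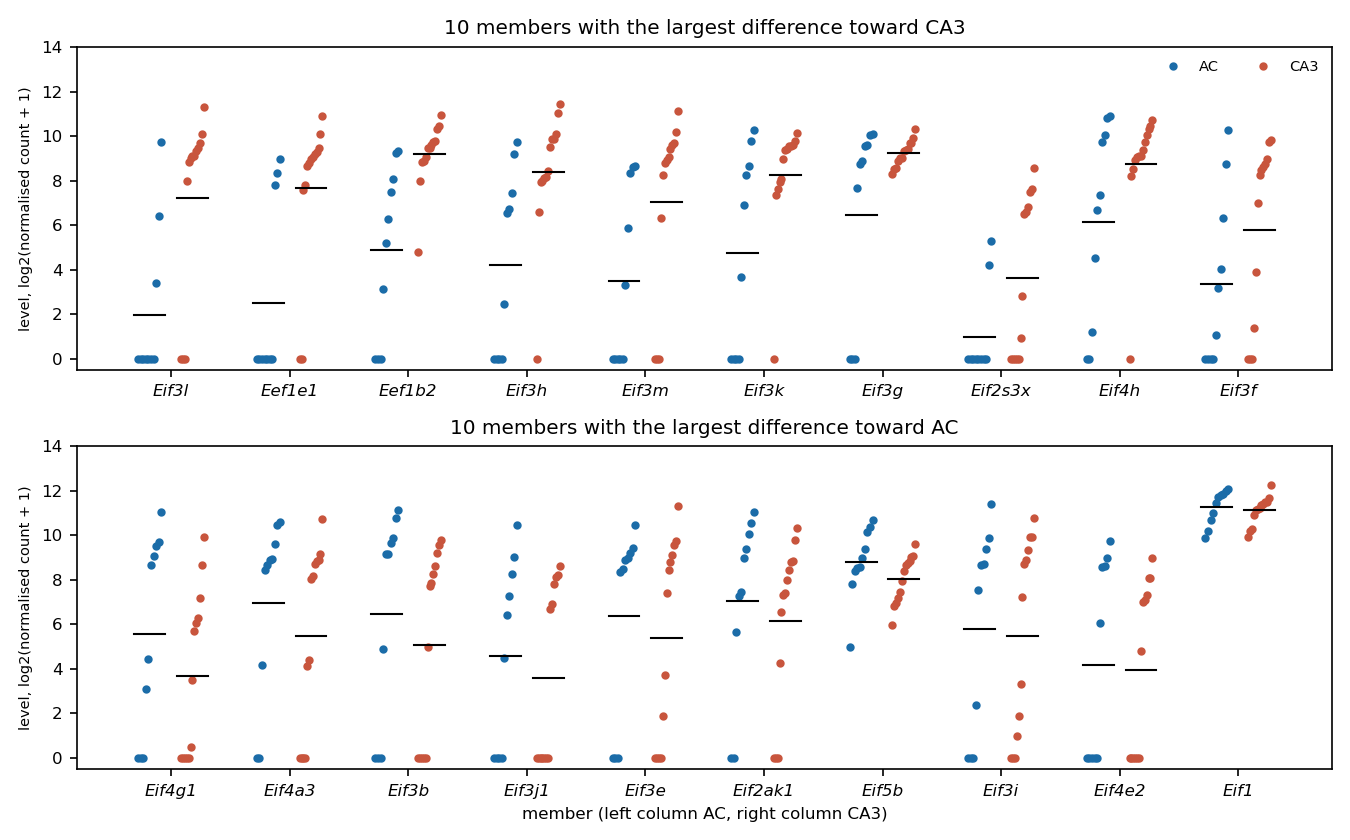
Level, log2(normalised count + 1), of the 10 members with the largest relative difference toward CA3 (top) and toward AC (bottom), 1 point per cell, AC left and CA3 right for each gene, with lines at the means. Points at 0 are cells without a read, and Eif3l has 7 of 10 AC cells there. The regions overlap for all 20 members, and overlap was not counted over all genes.

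Among the eIF4 factors, Eif4g1, the main scaffold of the cap-binding complex, had the largest relative difference toward AC of all members compared, 2.78. It ran from 0 over 6.56 to 11.06 in AC, with 7 of 10 cells read, and from 0 over 3.52 to 9.94 in CA3, with 8 of 13 cells read. Its summed reads were 127 CPM in AC (123 to 131), of which N44 held 45.2%, and 30.8 CPM in CA3 (29.3 to 32.4). The CA3 reads were also uneven, with 643 in N26 and 426 in N32, the next CA3 cell. The related scaffolds went the other way, with Eif4g2 at -0.86 and Eif4g3 at -0.47, both read in all 13 CA3 cells, though both came out above 0 (0.08 and 0.14) without the AC cell N3X. Of the helicases, Eif4a3, the core of the exon junction complex, stood at 2.42, or at 3.57 over genes of like level and length, with levels from 0 over 8.78 to 10.60 in AC and from 0 over 8.03 to 10.75 in CA3. Eif4a1 and Eif4a2 stood at 0.24 and -0.34, and over the 18 AC and 20 CA3 cells left by a filter after the study's methods Eif4a1 stood at -3.02. Eif4a2 came to 0.10 without the AC cell N42 and to 0.44 with the median over cells.

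Eif4a2 took 13.5% at the lowest, 61.8% at the median and 89.5% at the highest of the Eif4a1 and Eif4a2 reads per kilobase in AC cells. In CA3 cells it took 27.99%, 73.2% and 84.1%. The means were 58.3% ± 27.8 (SD, 10 cells) and 68.1% ± 16.5 (SD, 13 cells), and the ranges overlapped throughout. The cap-binding protein Eif4e was read in all 13 CA3 cells, between 8.77 and 11.10 with a median of 10.14, and in 8 AC cells, between 0 and 11.66 with a median of 9.30. Its relative difference of -1.35 came with a difference of -0.29 in the cells with a read. Eif4e2, a cap-binding protein that competes with eIF4E, stood at 1.15 but at -0.79 with the median over cells, and Eif4e3 did not meet the minimum. Eif4h, a partner of eIF4A, stood at -1.70, and 50.5% of its AC reads were in N8. It was the leading member in 1 of the 3 CA1 cells, where it was read in all 3 at 10.77, 12.15 and 10.32.

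None of the 4 genes of eIF4E-binding proteins met the minimum of 10 cells. Eif4ebp1 was read in 3 AC and 6 CA3 cells, at 27.2 CPM (25.5 to 29) and 36.1 CPM (34.4 to 37.8) in summed reads. Eif4ebp2, the form known from brain, was read in 2 AC cells, with 55 reads of which N43 held 96.4%, and in no CA3 cell. Against the limit of 3 reads over the summed reads of CA3 its level was at least 26.3-fold higher in AC, and this bound rested on 1 cell. Eif4ebp3 was read in 2 AC and 4 CA3 cells, and Eif4enif1, which carries eIF4E into the nucleus, in 3 and 6.

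Of the 7 genes of eEF1 and eEF2, none was higher in AC by at least 1 relative to the median gene, 3 were higher in CA3 by at least 1 and 4 lay between, with a median of -0.44. Of all genes 29.3% were past 1 toward AC and 29.6% toward CA3. Their summed level was 1165 CPM ± 350 (SD, 10 cells) in AC, from 572 over 1163 to 1656, and 2085 CPM ± 834 (SD, 13 cells) in CA3, from 1244 over 1730 to 3942. These ranges overlapped. Eef1a1 alone ran from 9.85 over 11.25 to 12.32 in AC and from 10.56 over 11.70 to 13.02 in CA3, a difference of -0.59 and of 0.32 relative to the median gene, so that its sign changed with the reference; without N41 and N42 the relative value was -0.09, and over the 18 AC and 20 CA3 cells left by a filter after the study's methods it was -3.02.

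Eef1b2, the exchange factor that reloads eEF1A with GTP, was read in 7 of 10 AC cells, from 0 over 5.73 to 9.31, and in all 13 CA3 cells, from 4.79 over 9.47 to 10.95. The means were 4.87 ± 3.83 (SD, 10 cells) and 9.18 ± 1.53 (SD, 13 cells), a relative difference of -3.40, and the 3 CA1 cells lay between 8.56 and 8.84. In summed reads it stood at 44.3 CPM in AC (42.1 to 46.6) and 213 CPM in CA3 (209 to 217). Eef1e1, a small partner of the aminoacyl transfer RNA synthetases, was read in 3 AC cells (30%, Clopper-Pearson 95% interval 6.67 to 65.2) and in 11 CA3 cells (84.6%, 54.6 to 98.1). These intervals take the cells as independent, which cannot be checked as no mouse is named, and they do not compare the regions. The relative difference of Eef1e1 was -4.25, but where it was read the regions differed by -0.68. Eef2 ran from 0 over 8.26 to 10.83 in AC and from 6.85 over 8.99 to 11.16 in CA3, a relative difference of -1.45 that turned to 0.67 with the filter after the study's methods. Eef1g stood at -0.44 and Eef1d at -0.07.

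Eef1a2, the form of eEF1A known to replace Eef1a1 in mature neurons and muscle, had a read in 9 AC cells and in every CA3 cell, but at low levels. Its share of Eef1a1 plus Eef1a2 reads per kilobase was 0% at the lowest, 0.849% at the median and 7.87% at the highest in AC, and 0.0467%, 0.567% and 5.24% in CA3. The means were 2.43% ± 3.06 (SD, 10 cells) and 1.42% ± 1.75 (SD, 13 cells), a difference smaller than either SD. In the 3 CA1 cells the share lay between 0.150% and 3.36%. Eef1a1 thus took most of the pair's reads in every one of the 26 cells.

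Eif5a, which is modified with hypusine, ran from 6.11 over 10.13 to 11.75 in AC and from 9.30 over 10.81 to 11.87 in CA3, a relative difference of -0.07. Its copy Eif5a2 was read in 1 AC and 3 CA3 cells. Eef2k, the calcium-dependent kinase that halts eEF2, was read in 2 AC cells, with 14 reads, and in 5 CA3 cells, with 1564 reads, of which N40 held 45.7%. That corresponds to 0.411 CPM (0.225 to 0.690) in AC and 32.01 CPM (30.4 to 33.6) in CA3, and with 7 cells in all it did not meet the minimum. Eef2kmt, which methylates eEF2, stood at -0.75.

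Members whose messenger RNA is known to begin with a terminal oligopyrimidine tract, a feature through which mTOR controls translation, were counted apart. Of 9 such members 1 was higher in AC by at least 1 relative to the median gene, Eif3e, and 4 in CA3, Eef1b2, Eif3h, Eif3f and Eef2, with a median of -0.44, where all genes gave 29.3% and 29.6%. The other 38 members compared had a median of -0.21. Other genes of the pathway, 46 in a list of release factors, poly(A)-binding proteins, mTOR pathway genes, modifying enzymes and repressors, were set beside the members. Of the 37 that met the minimum, 13 were higher in AC by at least 1, 8 were higher in CA3 and 16 lay between, with a median of -0.13; the shares of all genes were 29.3% toward AC and 29.6% toward CA3. The 3 largest toward AC were Gcn1l1, which activates the kinase Eif2ak4 (4.07), Rptor, the raptor subunit of an mTOR complex (3.45), and Rps6kb2, a ribosomal S6 kinase (3.201). The 3 largest toward CA3 were Dohh, which completes hypusine on eIF5A (-3.83), the RNA helicase Ddx3x (-3.15) and Bzw2, a protein that resembles eIF5 (-3.001). By list, the medians ran from -1.34 for the 2 genes of hypusine synthesis and -1.28 for 3 neuronal repressors (2 past 1 toward CA3, none toward AC) to 2.12 for 8 mTOR genes (5 past 1 toward AC and 1, Rheb, toward CA3). Where only cells with a read were counted, the repressors had the other sign, with a median difference of 1.93. Their mean detection was 46.7% in AC against 79.5% in CA3. The hypusine and mTOR lists kept their signs there, at -0.92 and 0.93. These lists were not part of the runs that left out single cells or changed other settings. The mTOR genes had a median transcript length of 6430 bases, in the class of longest genes, and against genes of like level and length their median was 1.48.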

How the data were processed

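The deposited file holds unnormalised counts of reads by gene symbol, in 47 columns. By the study's methods, the authors used Trimmomatic and Flexbar for trimming, STAR for alignment to Ensembl GRCm38 and HTSeq for counting, and counts of identifiers with the same symbol (annotation version 86) were averaged; the submitters' processing notes name featureCounts in its place. Libraries were made with Nextera XT. The methods list sense, antisense and both as options without saying which was set.

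Size factors came from scran 1.30.0 (computeSumFactors, pools of 10 and 20) in R 4.3.3 on the 26 cells, and levels are log2(count / factor + 1). Means and SDs over cells, exact Poisson and Clopper-Pearson 95% intervals and CPM used Python 3.11.15, numpy 2.4.6, pandas 2.3.3 and scipy 1.17.1; figures used matplotlib 3.10.9. Genes entered differences with a read in at least 10 of 23 cells. Transcript lengths, found for 96.5% of these genes, and sequences came from GENCODE vM21. On simulated counts all changed genes were recovered in direction. These had large set fold changes in well-read genes, library-size factors and less spread between cells than the data. That run checked the code only and cannot show how well directions are recovered in these data. Alternative factors were edgeR 4.0.16 TMM, DESeq2 1.42.0 poscounts and library size, with other pseudocounts, filters, cells, summaries and thinned counts.

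Members named are the 10 highest per kilobase, up to 10 per direction by relative difference, fixed paralogue sets, the eIF2 alpha kinases and Eef2k, and 3 other pathway genes per direction. Eif2a, Eif3c, Eif5, Eif1ad, Eef1d, Eef1g, Eef2, Eif2s1, Eif2s2, Eif2b4, Eif2b5, Eif4enif1 and Eef2kmt were named outside that rule, after their values were seen. Members and lists were chosen with earlier results of these data known. Each library is 1 cell with no mouse named, so no p-value was computed. The columns N4 and N4X correlated at 0.9998, other pairs of AC columns at most at 0.977. N4 alone was used, and the 2 were averaged as 1 cell where all labelled cells entered.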

Additional observations from a re-analysis of the deposited data

Results flagged for a closer look

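In 40 groups of values from 10 AC cells each, the highest and the lowest cell were compared with the gap that Dixon's criterion allows, which chance passes in about 1 in 20 groups, and 2 groups held such a cell. Both were the AC cell N41. Its leading member, Eef1a1, took 28.5% of its reads on members, where the next AC cell had 14.8%. Its level of Eif5b was 5.0, where the next lowest AC cell had 7.84.

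Members were also read in columns outside the comparison. The highest share of reads on members was 1.25% among the other AC columns (N51), 1.17% among the other CA3 columns (N15), 0.823% in the dentate gyrus (N11) and 0.529% in the CA3 cell labelled NPY-negative (N16). Oligodendrocyte markers summed to 27004 CPM in N15, 39072 in N11 and 178958 in N16, and astrocyte markers to 35231 in N11, and pyramidal cell markers to 4733 in N51; their part in these shares was not tested.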

How the results depend on the processing

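No paired analysis was possible because the cells carry no shared replicate number and no mouse is named. With no filter, 25 of 62 members (40.3%; 26.05% of all genes) were higher in CA3 by at least 1. With all labelled cells (19 AC, 21 CA3, scaled by library size) 3 were higher in AC (6.38%; 25.4% of all genes) and 20 in CA3 (42.6%; 27.6%), and with a filter after the study's methods, which kept more AC cells than the study did (18 AC, 20 CA3), 3 in AC (26.9% of all genes) and 22 in CA3 (46.8%; 28.7% of all genes); the Eef1a2 share then differed by 15.1 percentage points in both, against 1.00, or by 8.67 without N48 or without N51 and by 1.14 without both, the AC columns in which Eef1a2 held all reads of the pair. The added columns include some with oligodendrocyte markers at 27004 (N15), 115209 (N18) and 129926 CPM (N23) and with astrocyte markers at 30622 to 37179 CPM (N10, N13, N17, N22), whose part in these values was not tested. The log2 ratio of mean CPM gave 8 higher in CA3 (19.9% of all genes). Of the 24 members past 1, 6 had the other sign in some setting: Eif1 (-1.36 with all labelled cells, -1.41 with that filter), Eef2 (0.67 with that filter, 0.28 with the median over cells), Eif3g (0.51), Eif4e2 (-0.79) and Eif4e (0.16) with the median over cells, and Eif3j1 (-0.13) over cells with a read only. Of 11 members within 1 for which alternatives were run, 10 did, and 4 then lay past 1: Eef1a1 (-3.02), Eif4a1 (-3.02) and Eif1b (-2.35) with that filter and Eif1ax (2.04) over cells with a read only. Other members past 1 kept their sign but came to within 1 in some setting. Toward AC these were Eif3i (0.025), Eif3e (0.059), Eif2ak1 (0.30), Eif4a3 (0.61), Eif4g1 (0.67), Eif5b (0.69) and Eif3b (0.94). Toward CA3 they were Eif2s3x (-0.09), Eif2s1 (-0.16), Eif1ad (-0.21), Eif4h (-0.25), Eef1e1 (-0.73), Eif3k (-0.94) and Eif3f (-0.95). Eef1b2, Eif3h, Eif3l and Eif3m stayed past 1 in each. The cause was not tested. Leaving out each cell in turn gave a member median of -1.39 to -0.85, relative medians of -0.53 to -0.02, medians over like genes of -0.41 to 0.15, 8 to 13 members higher in AC, 11 to 18 in CA3, a share difference of -0.30 to -0.18, a difference in members read of -8.38 to -4.71 and in Eef1a2 share of 0.40 to 1.32. The median of all genes was -0.84 with scran factors of 23 cells, -0.96 with TMM, -0.60 with DESeq2 factors and -0.93 with library size. Cells with a read only, leaving out N48 and N51, and cells left out after their values were known, were alternatives chosen after seeing the data. Aspirated cytosol and 1 library per cell limit what a level of 0 can say.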

Other observations

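In the other columns the members' reads often came from few genes. In the AC column N49, Eif4a3 held 99.95% of them with 2 members read, and in N47 Eif3a held 98.4% with 4 members read. In the CA3 column N17, Eif2b4 held 51.1% with 4 members read. The AC column N45, also outside the comparison, had 44 members read, with Eef1a1 leading at 8.64%.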
